A study of Mus musculus with 12 samples.

Results

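This account follows 9 genes of the transforming growth factor beta (TGF-beta) pathway through RNA-seq of B16F10, a line of mouse melanoma cells. The genes are the 3 ligands Tgfb1, Tgfb2 and Tgfb3, the receptors Tgfbr1, Tgfbr2 and Tgfbr3, the signal carrier Smad3, its inhibitor Smad7, and Ltbp1, a protein that holds the ligands in latent form. They were chosen by name, as the rows of the count table whose Ensembl identifier carries one of these symbols. All 9 were found among the 54232 genes of the table, and all 9 were among the 14924 genes that passed the filter on low counts and were tested. The study asked how melanoma cells that survive immunotherapy differ from untreated cells, and the 12 libraries form 4 groups of 3. WT are untreated B16F10 cells in culture. The relapsed lines ITF1, Rel and ITM come from B16F10 cells that were injected under the skin of mice, treated with immunotherapy, sorted from the tumors that came back and grown to confluency before RNA extraction. Tumor 1, 3 and 4 were injected, treated and sorted in the same way, but their RNA was taken at once, without culture. Lyso are B16F10 cells incubated with lysosomes derived from T cells, for 48 hours per the labels. The study's methods give a shorter time. The labels give the C57BL/6 strain and an age of 6 weeks for every library, the cultured cells included. No allele or transgene was given for any group, and the markers of the sort gate were not stated for these libraries. The 3 relapsed lines are different lines, and neither the labels nor the methods say whether the libraries of the other groups came from separate cultures or animals, so that the p-values measure the spread between these libraries, which may be technical.

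TGF-beta ligands are secreted as latent complexes, in which latent TGF-beta binding proteins such as Ltbp1 tether the ligand to fibrillin and fibronectin of the extracellular matrix, and integrins or proteases release it. The free ligand brings together the type II receptor Tgfbr2 and the type I receptor Tgfbr1, while the co-receptor Tgfbr3 (betaglycan) presents ligand, above all Tgfb2, to them. The active receptors phosphorylate Smad2 and Smad3, which enter the nucleus with Smad4 and bind target promoters, and Smad7 is an inhibitor that the signal itself induces. In melanoma the pathway is known both for restraining the growth of pigment cells and for shaping the tumor stroma and immune response.

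Counts on genes ranged from 1667398 to 16402629 per library. Tumor, WT 1 and WT 2 held 5049496 counts or fewer, and the other libraries held 10895611 or more. Levels are given in CPM (the library's counts divided by its scaled depth), where 3 counts stood for 1.698 CPM in WT 1 and 0.1797 CPM in ITM. WT 1 and Lyso 1 stood apart from their groups. A chi-square of the counts of WT 1 against WT 2 and WT 3 came to 13.8 and 22.1 per degree of freedom, against 5.15 between WT 2 and WT 3. Lyso 1 came to 13.25 and 12.9 against Lyso 2 and Lyso 3, against 1.595 between Lyso 2 and Lyso 3. The relapsed lines, which are different lines, differed from each other by 51.8 to 73.4, and the Tumor libraries by 3.89 to 6.25. This value rises with the depth of the libraries compared, so the groups, which differ in depth, cannot be ranked by it. Many values that rest on WT 1 or Lyso 1 are therefore also given without it. All 10 melanocyte markers had more than 3 counts in every library, so that the labelled cell type was seen in all groups. Of 10 fibroblast markers, the summed level lay between 12.7 and 24.9 CPM in the 9 cultured libraries. It lay between 7581 and 10660 CPM in the Tumor libraries. All 10 were called higher in Tumor than in WT, with 8.56% of all tested genes. Of these markers, Col3a1 and Lum had 0 CPM in at least 2 of the WT libraries and reached at least 3369 and 71.5 CPM in Tumor. Others were present in WT, such as Pdgfrb, with 14.15, 9.29 and 11.4 CPM in WT 1, 2 and 3 and 30.6 to 36.4 CPM in Tumor.

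Against WT, the Tumor libraries carried more Tgfbr2, Tgfbr3 and Ltbp1 and less Tgfb3. In RNA taken from sorted cells in bulk, more cells of a type and more RNA per cell cannot be told apart. A gene was called changed at an adjusted p under 0.05 with an absolute log2 fold change over 1 (edgeR's quasi-likelihood test, Benjamini-Hochberg adjustment over all tested genes). In Tumor against WT, 3 of the 9 genes were called higher and 1 lower, where 8.56% and 2.2% of all tested genes were called higher and lower. The 3 Tumor libraries lay entirely above the 3 WT libraries for 6 of the 9 genes and entirely below for 1, while 36.1% of all tested genes did not overlap between these groups. The median log2 fold change over the 9 genes was 0.67, and it was 0.00 over all tested genes. In the relapsed lines against WT, 1 of the 9 genes, Tgfb3, was called lower and 0 were called higher in the same test (2 of 9 had an unadjusted p under 0.05, and DESeq2 also called Tgfb3 alone), with 0.0268% and 0.0134% of all tested genes called lower and higher. Values did not overlap for 2 of the 9, against 10.6% of all tested genes. In Lyso against WT, 0 of the 9 genes were called by edgeR and 0 by DESeq2 (2 had an unadjusted p under 0.05 in edgeR), with 2.43% of all tested genes called higher and 0.576% lower. Lyso and WT did not overlap for 3 of the 9 genes, 2 higher and 1 lower, against 27.4% of all tested genes. Without WT 1 the calls numbered 4 in Tumor, 1 in the relapsed lines and 0 in Lyso, and without Lyso 1 they were 0 in Lyso by edgeR. The 3 comparisons share the WT libraries and are therefore not independent of each other.

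**Figure D1:**
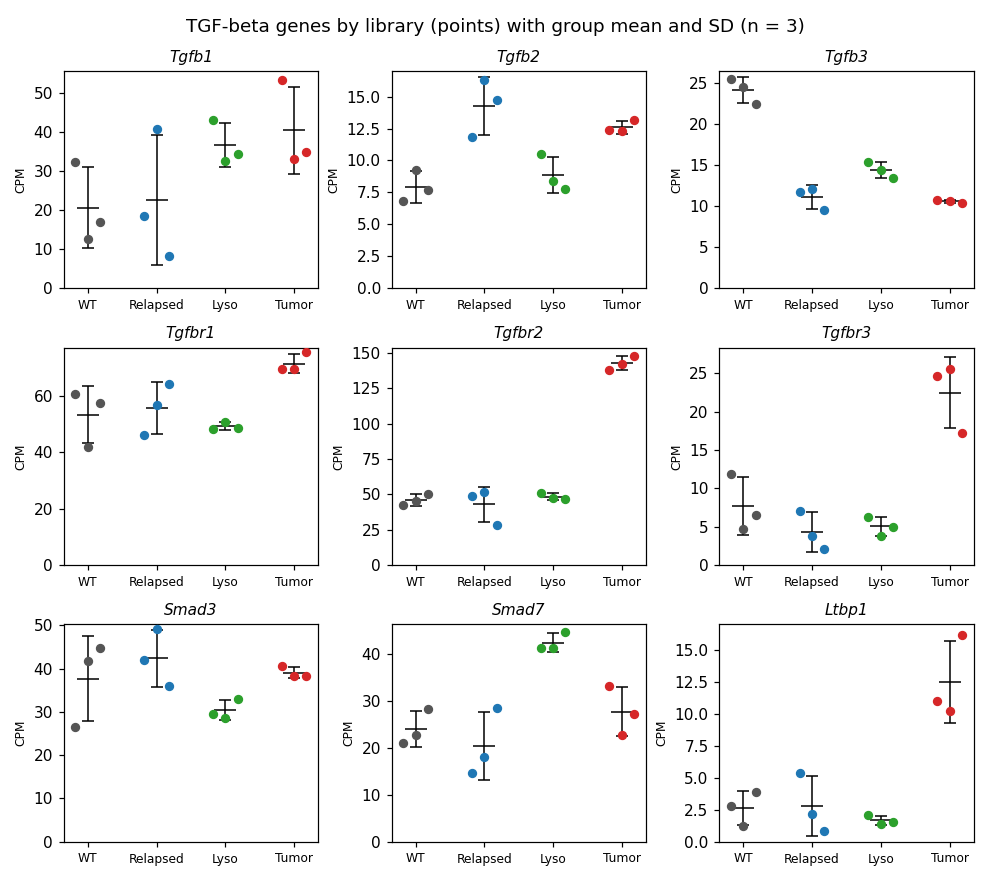
Level of each of the 9 genes in every library, in CPM on linear axes that start at 0, with points for libraries (WT 1 to 3; ITF1, Rel and ITM; Lyso 1 to 3; Tumor 1, 3 and 4, from left to right) and bars for the group mean and SD of 3. Tgfbr2, Tgfbr3 and Ltbp1 stood apart in the 3 Tumor libraries, and Tgfb3 was highest in the 3 WT libraries.

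The ligand genes differed from each other in how they varied. Tgfb3 (chr12:86056745-86079041, minus strand, GRCm38) encodes the ligand isoform best known from palate and lung development. It had 25.5, 24.5 and 22.5 CPM in WT 1, 2 and 3, and 11.8, 12.1 and 9.47 CPM in ITF1, Rel and ITM. In Lyso it had 15.4, 14.4 and 13.4 CPM, and in Tumor 1, 3 and 4 it had 10.7, 10.7 and 10.4 CPM. Every one of the 9 other libraries thus lay below every WT library. In Tumor, Tgfb3 was called lower, by -1.18 ± 0.16 on the log2 scale (fold change ± standard error, edgeR adjusted p = 0.000313), and the call held when any 1 library was left out. In the relapsed lines it fell by 1.11 (standard error 0.15, adjusted p = 0.0256), but the call was lost without Rel, ITM, WT 2 or WT 3, with adjusted p-values of up to 0.145 or, without ITM, a log2 fold change of -0.998 that missed the minimum. In a fit of the relapsed lines and WT alone, the adjusted p was 0.610, and over the alternatives it ran from 4.15e-06 in DESeq2 to 1 in glmTreat, which tests whether the fold change exceeds the minimum itself. In Lyso the log2 fold change was -0.73 (standard error 0.15, adjusted p = 0.0145), short of the minimum of 1. Without WT 1, the log2 fold changes were -1.14 in Tumor, -1.08 in the relapsed lines and -0.69 in Lyso, and without Lyso 1 that in Lyso was -0.78. In order of the mean, Tumor, the relapsed lines, Lyso and WT followed each other. Of these neighbours, Lyso and WT differed at an adjusted p under 0.05, while Tumor and the relapsed lines (adjusted p = 0.810) and the relapsed lines and Lyso (adjusted p = 0.144) did not. Gm48008 and Gm37804, genes on the opposite strand, share 7.60% and 4.82% of the exonic bases of Tgfb3, and since the strand setting of the counts was not given, reads there cannot be told apart. Gm48008 had between 5 and 68 counts per library, and the position of those reads relative to Tgfb3 was not tested.

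Tgfb1 (chr7:25687002-25705077, plus strand), the isoform that is most widely made and most studied in immunity, varied within groups. It had 32.3, 12.7 and 16.9 CPM in WT 1, 2 and 3 and 18.4, 40.8 and 8.21 CPM in ITF1, Rel and ITM. In Lyso it had 43.0, 32.6 and 34.3 CPM, and in Tumor 1, 3 and 4 it had 53.3, 33.2 and 34.8 CPM. All Lyso and Tumor libraries lay above all WT libraries, but by a narrow gap to WT 1, and the relapsed lines spanned 4.98-fold among themselves. Against WT the log2 fold change was 1.03 in Tumor (approximate 95% interval 0.07 to 1.999, edgeR unadjusted p = 0.0571, adjusted p = 0.170). In Lyso it was 0.90 (-0.04 to 1.84, adjusted p = 0.350), so that no change in Tgfb1 could be called. The intervals assume a normal distribution and are narrower than the edgeR test implies. Without WT 1 the log2 fold changes were 1.38 (adjusted p = 0.0746) and 1.26 (adjusted p = 0.1804), and without Lyso 1 the value in Lyso was 0.76. In the relapsed lines the log2 fold change of 0.19 turned to -0.56 without Rel. The means ran from WT over the relapsed lines and Lyso to Tumor, and no neighbours in this order differed (adjusted p from 0.382 to 0.929).

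Tgfb2 (chr1:186622792-186705989, minus strand), the isoform that depends most on betaglycan, had 6.79, 9.29 and 7.73 CPM in WT 1, 2 and 3. It had 11.8, 16.3 and 14.7 CPM in ITF1, Rel and ITM, 10.47, 8.38 and 7.77 CPM in Lyso, and 12.4, 12.3 and 13.2 CPM in Tumor 1, 3 and 4. The relapsed lines and Tumor lay above WT in all libraries, and Lyso overlapped WT. Its log2 fold change was 0.67 in Tumor against WT (standard error 0.21, adjusted p = 0.0416 from edgeR) and 0.85 in the relapsed lines (standard error 0.20, adjusted p = 0.153), neither of which was a call. Without WT 1 or WT 3, the adjusted p in Tumor was 0.0678 or 0.157 (edgeR). Lyso lay below the relapsed lines by 0.69 (adjusted p = 0.0356), also short of the fold minimum. The means ran from WT over Lyso and Tumor to the relapsed lines, with no difference between neighbours (adjusted p from 0.0716 to 0.744).

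Levels of different genes were compared per length, as CPM per kilobase of all annotated exons. On that scale Tgfb3 was the highest of the 3 ligands in 3 of 3 WT libraries, while Tgfb1 was the highest in 2 of 3 relapsed lines, 3 of 3 Lyso and 3 of 3 Tumor libraries. The share of Tgfb3 in the sum of the 3 ligands was 57.4% ± 7.03 in WT, 34.2% ± 8.33 in the relapsed lines, 32.8% ± 2.25 in Lyso and 23.9% ± 3.45 in Tumor (SD, n = 3 each). WT libraries lay between 49.9% and 63.8% and did not overlap any other group, for which the exact two-sided permutation test gave p = 0.1 in each comparison with WT, the smallest p that 3 against 3 allow. The sum of the 3 ligands itself was 12.6 ± 2.17 CPM per kilobase in WT, 10.2 ± 3.87 in the relapsed lines, 13.1 ± 1.57 in Lyso and 13.3 ± 2.22 in Tumor (exact permutation p = 0.4, 0.6 and 0.5 against WT). With the longest transcript as the length, a choice made after the data were seen, Tgfb3 led in 2 of 3 WT libraries. Its share in WT was then 44.1%, still above the 24.7%, 21.2% and 15.0% in the other groups. In WT 1, 2 and 3 it was 35.2%, 51.8% and 45.2%, against 58.6%, 35.2% and 44.6% for Tgfb1. Which ligand led in WT thus depended on the length used.

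**Figure D2:**
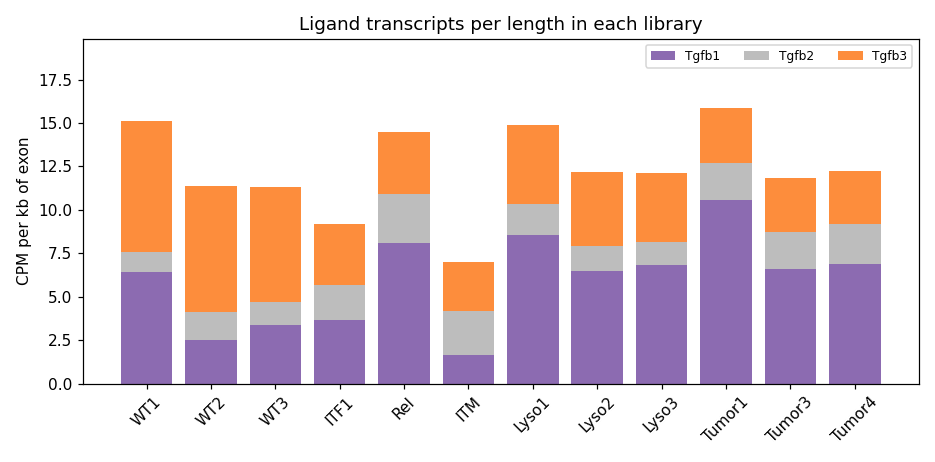
Stacked bars of Tgfb1, Tgfb2 and Tgfb3 in each of the 12 libraries, in CPM per kilobase of exon on an axis that starts at 0. The Tgfb3 part was the tallest in WT 1, 2 and 3 and made up between 19.97% and 26.6% of the bar in the Tumor libraries, while the bar heights overlapped between groups.

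Among the receptors, Tgfbr2 changed most clearly. Tgfbr2 (chr9:116084293-116175360, minus strand) encodes the type II receptor that binds the ligand first. It had 42.5, 45.2 and 50.5 CPM in WT 1, 2 and 3, 48.6, 51.5 and 28.5 CPM in ITF1, Rel and ITM, and 51.0, 47.7 and 46.4 CPM in Lyso. In Tumor 1, 3 and 4 it had 137.8, 142.5 and 147.8 CPM. The 3 Tumor libraries lay close together and above all 9 cultured libraries, which overlapped each other. Tgfbr2 was 3.07-fold higher in Tumor than in WT (log2 fold change 1.62, standard error 0.19, adjusted p = 8.3e-05 from edgeR). The call held when any 1 library was left out (adjusted p of at most 0.000734), against WT 1 and WT 2 alone (log2 fold change 1.704) and in glmTreat, the alternative with the largest adjusted p (0.0129). In the relapsed lines and Lyso the log2 fold changes against WT were -0.12 (approximate 95% interval -0.48 to 0.24) and 0.06 (-0.31 to 0.42).

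Tgfbr3 (chr5:107106570-107289629, minus strand) encodes betaglycan. It had 11.9, 4.64 and 6.55 CPM in WT 1, 2 and 3, 7.07, 3.82 and 2.04 CPM in ITF1, Rel and ITM, and 6.32, 3.82 and 4.94 CPM in Lyso. In Tumor 1, 3 and 4 it had 24.7, 25.6 and 17.2 CPM. Tumor again lay above every cultured library, and WT 1 was the highest of these. The difference between Tumor and WT was 3.09-fold (log2 fold change 1.63, standard error 0.43, adjusted p = 0.0184 from edgeR). This call was lost without Tumor 1, Tumor 3, WT 2 or WT 3 (adjusted p of up to 0.0884) and held without WT 1, at a log2 fold change of 1.92.

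Tgfbr1 (chr4:47353222-47414931, plus strand), the type I receptor kinase, had 60.6, 41.8 and 57.3 CPM in WT 1, 2 and 3 and 45.9, 56.8 and 64.1 CPM in ITF1, Rel and ITM. It had 48.3, 50.8 and 48.7 CPM in Lyso and 69.2, 69.4 and 75.3 CPM in Tumor 1, 3 and 4. Tumor lay above all other libraries, by a smaller margin than for the other receptors. The log2 fold change in Tumor was 0.42 against WT (standard error 0.15, adjusted p = 0.0731) and 0.54 against Lyso (standard error 0.15, adjusted p = 0.0183, edgeR), neither past the fold minimum. Without WT 1, the value against WT was 0.49 (adjusted p = 0.0469, edgeR), also short of that minimum. Per kilobase of exon, the ratio of Tgfbr2 to Tgfbr1 was 0.709 ± 0.152 in WT, 0.641 ± 0.256 in the relapsed lines, 0.785 ± 0.051 in Lyso and 1.60 ± 0.037 in Tumor (SD, n = 3 each). It was above 1 in 3 of 3 Tumor libraries and below 1 in the 9 cultured libraries (exact permutation p = 0.1 for Tumor against WT, the smallest that 3 against 3 allow), and the same held with the longest transcript as the length.

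Ltbp1 (chr17:75005568-75392512, plus strand) encodes the latent TGF-beta binding protein that anchors the latent complex in the matrix. It was low in cultured cells, with 2.83, 1.27 and 3.89 CPM in WT 1, 2 and 3, 5.38, 2.14 and 0.84 CPM in ITF1, Rel and ITM, and 2.07, 1.40 and 1.54 CPM in Lyso. In Tumor 1, 3 and 4 it had 11.1, 10.3 and 16.2 CPM. Every Tumor library lay above every other library, but the WT level rested on 5, 3 and 66 counts. The difference between Tumor and WT was 4.10-fold (log2 fold change 2.04, standard error 0.56, adjusted p = 0.0235 from edgeR). The call was lost without Tumor 4 (adjusted p = 0.0824) and without WT 2 (adjusted p = 0.0720), and it held without WT 1 at a log2 fold change of 2.0.

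Tgfbr2, Tgfbr3 and Ltbp1 were also called higher in Tumor against the relapsed lines, with log2 fold changes of 1.74, 2.40 and 2.19 and adjusted p-values of 2.2e-05, 0.00102 and 0.00916 (edgeR). These 3 were the only calls among the 9 genes, while 8.36% of all tested genes were called higher and 2.31% lower. Against Lyso the same 3 genes were called, with log2 fold changes of 1.56, 2.16 and 2.90 and adjusted p-values of 5.8e-05, 0.00181 and 0.00188, while 8.78% of all tested genes were called higher and 4.14% lower. Both comparisons use the Tumor libraries of the comparison with WT. In both, all 3 calls held when any 1 library was left out. The higher levels in Tumor went with the fibroblast markers, whose part in them was not tested. Markers of endothelial and myeloid cells also moved with Tumor. Their summed levels were 23.5 to 30.4 CPM over 8 endothelial markers and 49.4 to 79.1 CPM over 10 myeloid markers in Tumor. In WT they were 0 to 1.06 and 12.5 to 29.3 CPM. Against WT, 6 of 6 endothelial and 6 of 8 myeloid markers tested were called higher, with 8.56% of all tested genes. Of 5 pericyte markers 3 were tested and 2 called higher. The 10 T cell markers summed to 3.22 to 9.65 CPM in Tumor and 1.27 to 6.79 CPM in WT. Their part was not tested either.

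**Figure D3:**
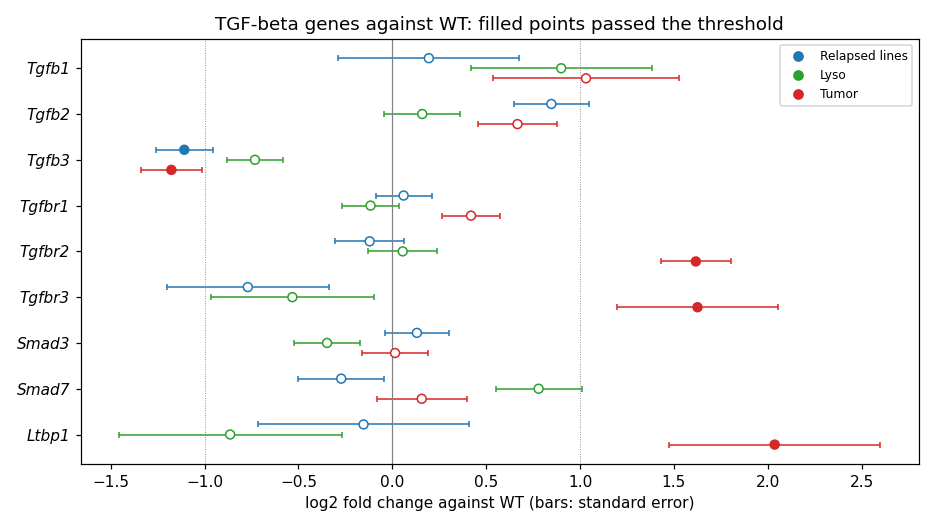
Log2 fold change of each of the 9 genes against WT in the relapsed lines, Lyso and Tumor, with bars for the standard error of the edgeR fit and dotted lines at the fold minimum. Filled points mark the calls, which were Tgfb3 in the relapsed lines and Tgfb3, Tgfbr2, Tgfbr3 and Ltbp1 in Tumor.

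The sequences before the transcription starts of Tgfbr2 and Ltbp1 are shown because these genes were called higher in Tumor in all 3 comparisons. Tgfbr3 was called in all 3 as well, but no usable sequence was found for it. The sequences shown come from RefSeq (GRCm38.p6) and are written 5′ to 3′ on the strand of the gene. Capitals mark the SMAD box CAGAC or GTCTG, which SMAD3 and SMAD4 bind, and the cyclic AMP response element TGACGTCA. The window of Tgfbr2 (chr9:116175364-116175613, minus strand) holds 1 SMAD box, which begins at position -160 from the start. For Ltbp1 there are 2 windows. The first (chr17:75005279-75005479, plus strand, ended where RefSeq lets the gene begin) holds 1 SMAD box just after a cyclic AMP response element, whose first bases lie at -15 and -24 counted from the end of the sequence shown, and the second (chr17:75178531-75178780, plus strand) holds 2 SMAD boxes.
Tgfbr2: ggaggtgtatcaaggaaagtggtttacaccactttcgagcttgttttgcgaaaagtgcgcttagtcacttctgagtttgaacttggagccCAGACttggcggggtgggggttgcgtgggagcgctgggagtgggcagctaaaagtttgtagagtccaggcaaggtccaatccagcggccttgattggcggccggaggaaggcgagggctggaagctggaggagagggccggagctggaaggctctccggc
Ltbp1, first window: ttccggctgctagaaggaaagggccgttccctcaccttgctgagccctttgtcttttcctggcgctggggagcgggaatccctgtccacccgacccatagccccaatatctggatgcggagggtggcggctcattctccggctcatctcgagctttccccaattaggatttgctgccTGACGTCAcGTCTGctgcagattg
Ltbp1, second window: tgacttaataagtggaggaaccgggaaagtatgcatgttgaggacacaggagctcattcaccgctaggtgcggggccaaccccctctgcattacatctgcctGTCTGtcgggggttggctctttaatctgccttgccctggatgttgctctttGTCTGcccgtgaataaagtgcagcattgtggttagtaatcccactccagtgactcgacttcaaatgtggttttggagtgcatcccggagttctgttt
In all, 8 windows of 250 bases were found for 6 of the 9 genes. A SMAD box on either strand was present in 5 of the 8 (the 3 windows shown, Tgfb2 and 1 of 2 windows of Tgfbr1), and in 42.2% of 32851 RefSeq windows of the same length. The cyclic AMP response element was present in 1 of the 8 and in 1.55% of all windows, and the AP-1 motif TGACTCA or TGAGTCA in 0 of the 8 and in 4.46% of all windows. These matches describe letters, not binding.

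Smad3 and Smad7 behaved differently from the receptors. Smad3 (chr9:63646767-63757994, minus strand), which carries the signal to the nucleus, had 26.6, 41.8 and 44.7 CPM in WT 1, 2 and 3, 41.9, 49.1 and 36.0 CPM in ITF1, Rel and ITM, 29.5, 28.6 and 33.0 CPM in Lyso, and 40.6, 38.2 and 38.4 CPM in Tumor 1, 3 and 4. WT 1 lay far below the other WT libraries. Every group overlapped WT, but Lyso and Tumor did so only through WT 1. No call was made in any comparison. In Tumor against WT its log2 fold change was 0.01 (approximate 95% interval -0.33 to 0.36). In Lyso it was -0.35 (-0.69 to -0.01, edgeR unadjusted p = 0.0671, adjusted p = 0.311). Without WT 1 the value in Lyso was -0.51 (adjusted p = 0.0478 from edgeR), and that in Tumor turned to -0.16. In order of the mean, Lyso, WT, Tumor and the relapsed lines followed each other with no difference between neighbours (adjusted p from 0.311 to 0.972).

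Smad7 (on chromosome 18, 75367529 to 75395935, plus strand), the inhibitory SMAD that recruits ubiquitin ligases to the receptor, was highest in Lyso. It had 20.9, 22.8 and 28.3 CPM in WT 1, 2 and 3, 14.6, 18.1 and 28.4 CPM in ITF1, Rel and ITM, 41.2, 41.1 and 44.6 CPM in Lyso, and 33.2, 22.7 and 27.1 CPM in Tumor 1, 3 and 4. The 3 Lyso libraries lay above the other 9, which overlapped. Against the relapsed lines Smad7 was 2.07-fold higher in Lyso (log2 fold change 1.05, standard error 0.22, adjusted p = 0.0112 from edgeR). It was the only call among the 9 genes in that comparison, where 3.21% of all tested genes were called higher and 1.04% lower. The call was lost without Lyso 3 (adjusted p = 0.0521), and without ITF1 or Rel the log2 fold change was 0.86 or 0.97. Against WT the log2 fold change was 0.78 (standard error 0.23, adjusted p = 0.0773), or 0.70 without WT 1 and 0.80 without Lyso 1. T cell markers moved with Lyso, at 10.9 to 13.0 CPM summed over 10 genes against 1.27 to 6.79 CPM in WT. Of the 3 that were tested, 2 were called higher than in WT, with 2.43% of all tested genes. Of these 10 genes, 8 had no counts in any WT library. In Lyso, each of the 10 had counts in at least 1 library, and Cd8a had 1.21 to 2.27 CPM. Their part in the Smad7 level was not tested.

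Of the partner SMADs, Smad2, which shares the receptors' signal with Smad3, had 32.8, 47.7 and 41.6 CPM in WT 1, 2 and 3 and a log2 fold change of 0.05 in Tumor, -0.19 in Lyso and 0.01 in the relapsed lines (adjusted p from 0.488 to 1). Smad4, the common partner of all receptor SMADs, had 88.3, 53.6 and 53.3 CPM in WT, with WT 1 above the others, and 90.7, 82.3 and 88.0 CPM in Tumor 1, 3 and 4. Its log2 fold change in Tumor was 0.45 (adjusted p = 0.0939), and 0.70 without WT 1 (adjusted p = 0.00167, edgeR), under the fold minimum in both cases.

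Beyond the 9 genes, 52 others of the pathway were listed by role, and 49 of them were tested. In Tumor against WT 14 of the 49 were called higher and 5 lower (8.56% and 2.2% of all tested genes), in Lyso 3 higher and 2 lower (2.43% and 0.576% of all tested genes), and in the relapsed lines 0 either way by edgeR (9 had an unadjusted p under 0.05) and 1 lower by DESeq2, Postn. The median log2 fold change over the 49 was 0.31 in Tumor, 0.09 in Lyso and 0.004 in the relapsed lines, and over all tested genes it was 0.001, -0.005 and 0.008. Where each library of the comparison had to hold at least 10 counts, 6 of the list were called in Tumor. Some members removed by this minimum were near 0 in WT. Others were low only in shallow WT 1, such as Thbs1 (5, 34 and 624 counts in WT 1, 2 and 3) and Postn (9, 32 and 297 counts). With any 1 library left out, 17 to 20 were called in Tumor and 1 to 4 in Lyso, where Postn alone was called without Lyso 1 or Lyso 3.

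Genes of latency and activation had 5 of 10 tested members called higher in Tumor, where 8.56% of all tested genes were. Fbn1 (fibrillin-1, the microfibril to which LTBPs bind) had 352.0, 326.1 and 287.2 CPM in Tumor 1, 3 and 4 and at most 1.58 CPM in any cultured library. Ltbp2 had 7.48, 9.46 and 9.89 CPM in Tumor and at most 0.57 CPM elsewhere, and Lrrc32 (GARP, which displays latent ligand on the cell surface) had 19.2, 10.47 and 5.89 CPM and at most 0.56 CPM elsewhere. In WT 1 and WT 2 each of the 3 genes had 0 or 1 counts, and over all cultured libraries Fbn1 had at most 17 counts, Ltbp2 1 and Lrrc32 6. Thbs1 (thrombospondin-1, an activator of latent ligand) had 170.7, 129.0 and 147.1 CPM in Tumor, 74.1, 76.9 and 81.8 CPM in Lyso and 2.83, 14.4 and 36.8 CPM in WT. It was called higher in Tumor, with a log2 fold change of 2.78 (adjusted p = 0.00686, edgeR), or 2.40 without WT 1. Itgav, the alpha-v integrin chain that releases latent ligand, was called higher in Tumor (log2 fold change 1.004, adjusted p = 0.0153) and in Lyso (1.12, adjusted p = 0.0254). The call in Tumor was lost without Tumor 3 (adjusted p = 0.0672) and without WT 1 (log2 fold change 0.76), and the call in Lyso without WT 1 (0.88), WT 2 or any Lyso library (adjusted p of up to 0.0906). Furin, the protease that cuts the ligand from its propeptide, had 194.7, 157.0 and 168.7 CPM in Lyso against 80.4, 74.7 and 100.2 CPM in WT (log2 fold change 1.01, adjusted p = 0.0230, edgeR). Without WT 1, WT 2, Lyso 1 or Lyso 3 it was not called.

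In Tumor against WT, 2 of 6 other SMADs tested were called lower and 0 higher. Of 9 other receptors tested, 1 was called higher and 0 lower. Among all tested genes, 8.56% were called higher and 2.2% lower. Smad6 and Smad9, which belong to the bone morphogenetic protein (BMP) branch of the family as inhibitor and signal carrier, had 2.28, 3.62 and 1.88 CPM and 0.975, 0.604 and 0 CPM in Tumor 1, 3 and 4. In WT 2 and WT 3 they had 34.2 and 32.3 CPM and 27.4 and 11.3 CPM, but in WT 1 each had only 3.96 CPM. The log2 fold changes were -3.24 for Smad6 (adjusted p = 0.00817) and -4.81 for Smad9 (adjusted p = 0.00792, edgeR), or -3.63 and -5.13 without WT 1. Acvr1, a type I receptor of BMPs and activins, was called higher in Tumor, by 1.11 ± 0.17 on the log2 scale (edgeR adjusted p = 0.000716), and this fell short of the fold minimum without WT 2 or Tumor 4. Of 10 inhibitors and adaptors tested, 1 was called higher, which is near the share over all tested genes. Ldlrad4 had 2.60, 2.82 and 1.18 CPM in Tumor and 0 counts in WT, but it shares 52.1% of its exonic bases with Fam210a on the other strand, so its counts are uncertain. In the relapsed lines and Lyso none of these 3 roles had a call by edgeR (in Lyso, 0, 4 and 2 members of the SMAD, receptor and inhibitor lists had an unadjusted p under 0.05, and in the relapsed lines 2, 1 and 1), and DESeq2 called none of them in either comparison.

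Among 14 tested targets, 7 were called higher and 3 lower in Tumor, against the same 8.56% and 2.2% of all tested genes. Fn1 (fibronectin) and Postn (periostin) are matrix genes that TGF-beta induces in many cells. Fn1 had 1220, 1083 and 1045 CPM in Tumor 1, 3 and 4 and 48.7, 109.4 and 130.7 CPM in WT (log2 fold change 3.51, standard error 0.39, adjusted p = 6.4e-05, edgeR). Postn had 299.7, 214.4 and 285.0 CPM in Tumor, 5.09, 13.5 and 17.5 CPM in WT, and 3.58, 2.98 and 2.51 CPM in Lyso. It rose by 4.29 in Tumor (adjusted p = 1.7e-06) and fell by 2.17 in Lyso (standard error 0.35, adjusted p = 0.00320, edgeR), where the call was lost without WT 3 (adjusted p = 0.0594). Postn is also made by fibroblasts, whose markers moved with Tumor. Bhlhe40, a transcriptional repressor, had 355.6, 422.3 and 335.7 CPM in Tumor, 162.9, 149.6 and 147.3 CPM in Lyso and 38.5, 98.0 and 80.4 CPM in WT. It was called higher in Tumor (log2 fold change 2.34, adjusted p = 3.6e-05) and in Lyso (1.06, adjusted p = 0.0229), the latter not without WT 1, WT 3 or any Lyso library. Acta2 (smooth muscle actin) had 9.43, 12.9 and 8.24 CPM in Tumor and at most 0.472 CPM in any cultured library. Snai1 and Tgfbi were also called higher in Tumor and reached 3.02 to 6.83 and 4.23 to 8.003 CPM there, against at most 0.42 and 0 CPM in WT.

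Id1, Id2 and Id3, inhibitors of differentiation that BMP signals induce and TGF-beta represses in several cell types, were the 3 targets called lower in Tumor. They were singled out after their values were seen. Id1 had 0.975, 2.21 and 1.65 CPM in Tumor 1, 3 and 4 and 2.26, 35.9 and 26.5 CPM in WT 1, 2 and 3. Id3 had 6.83, 7.85 and 12.7 CPM in Tumor and 13.0, 214.5 and 160.1 CPM in WT, and Id2 had 85.5, 95.8 and 84.5 CPM and 65.7, 509.2 and 424.6 CPM. For each of the 3, WT 1 was close to the Tumor level or below it, and the other 2 WT libraries were far above. The log2 fold changes were -3.75, -1.92 and -3.83 for Id1, Id2 and Id3 (adjusted p = 0.00486, 0.0264 and 0.00318, edgeR) and -4.15, -2.40 and -4.34 without WT 1. The call for Id2 was lost without WT 2, WT 3 or any Tumor library. In Lyso the 3 genes had 68.6 to 88.4, 905.7 to 1000 and 281.2 to 288.2 CPM, above every WT library. The log2 fold changes there were 1.82, 1.53 and 1.12 (adjusted p = 0.0762, 0.133 and 0.362 from edgeR). Without WT 1 they were 1.42, 1.05 and 0.62 (adjusted p = 0.0707, 0.0826 and 0.395 from edgeR). Neither edgeR nor DESeq2 called any of the 3 in Lyso.

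**Figure D4:**
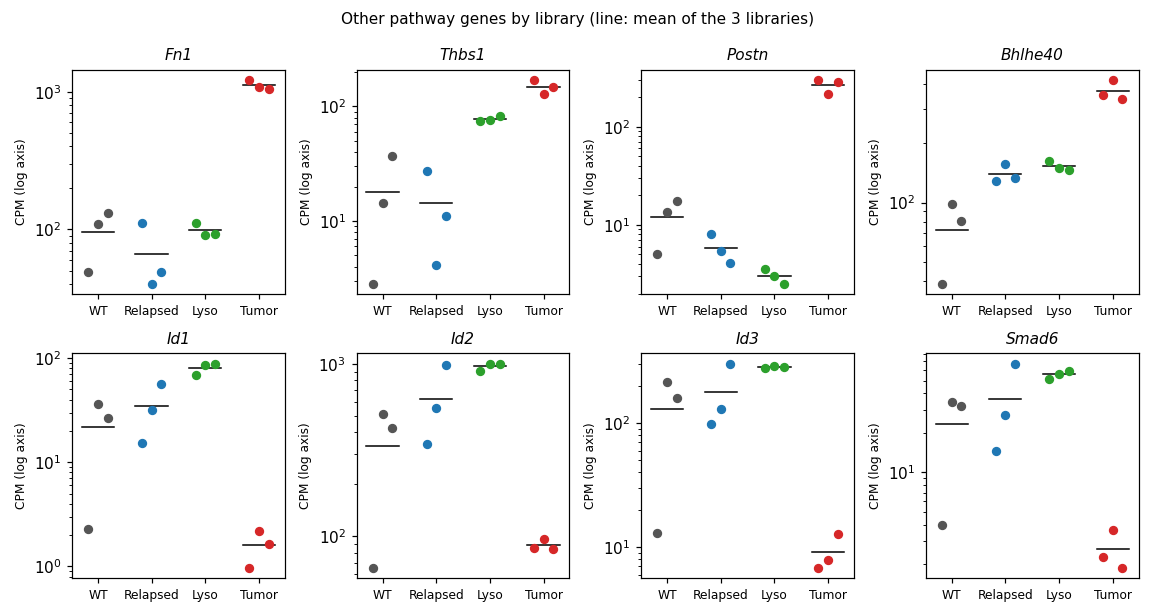
Levels of Fn1, Thbs1, Postn, Bhlhe40, Id1, Id2, Id3 and Smad6 in every library, in CPM on log axes, with points for libraries and a line for the mean of 3. The first 4 genes were highest in Tumor, and for the Id genes and Smad6 the first WT library, WT 1, sat near the Tumor level, apart from WT 2 and WT 3.

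Over the 12 libraries, the genes whose log2 CPM followed each of the 9 most closely were mostly genes of other pathways. For Tgfbr2 they were Gpx3, a secreted glutathione peroxidase (Pearson r = 0.982), and Jun, a subunit of AP-1 (r = 0.981). Jun had a mean of 704.6 CPM in Tumor and between 59.8 and 65.8 CPM in the other groups. For Ltbp1 they were Creb5 (r = 0.966), a transcription factor that binds cyclic AMP response elements, and Tnfaip3 (r = 0.960), an inhibitor of NF-kappaB signaling. For Tgfbr3 they were Car12 (r = 0.952) and Zbtb10 (r = 0.951), and for Tgfbr1 Entpd6 (r = 0.942) and Gm42664 (r = 0.906). Tgfbr2, Tgfbr3 and Ltbp1 correlated with each other at r between 0.885 and 0.908. All these points share the step between the Tumor libraries and the 9 cultured ones. The ligands had other neighbours. For Tgfb1 they were Ltbr, the lymphotoxin beta receptor (r = 0.978), and Parp4 (r = 0.940). For Tgfb2 they were Fmn1 (r = 0.926) and Fbxw4 (r = 0.912), and for Tgfb3 Ube2e1 (r = 0.901) and Gm48008 (r = 0.887), the gene on the opposite strand. Tgfb2 and Tgfb3 ran against each other (r = -0.78). For Smad3 they were Dennd6a (r = 0.907) and 1810034E14Rik (r = 0.897), and for Smad7 Mid1 (r = 0.947) and Pim3 (r = 0.921), a kinase with a mean of 157.2 CPM in Lyso and between 66.9 and 71.4 CPM in the other groups. The libraries of a group share their treatment, so these values describe the 12 libraries and were not tested.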

How the data were processed

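Per the submitters' notes and the study's methods, the authors trimmed reads with fastp 0.19.6, aligned them to GRCm38 with STAR 2.7.1a, used DESeq2 1.24.0, and deposited raw counts per gene without normalization. Neither a strand setting nor an annotation release was given in the sources used here. Of the reads of a library, 36.2% to 39.4% fell on genes, and the 4 rows of other reads were left out. Symbols and positions came from GENCODE M21 (GRCm38), which holds 54165 of the 54232 identifiers.

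The counts were tested in R 4.3.3 with the quasi-likelihood functions of edgeR 4.0.16, after TMM scaling and filterByExpr by group, with 1 fit of all 12 libraries and Benjamini-Hochberg adjustment over 14924 genes. Calls required an adjusted p below 0.05 and a log2 fold change beyond 1 in either direction. Standard errors were the log2 fold change divided by the root of F. The fit was tested on simulated data. DESeq2 1.42.0 was an alternative. Depth ran from 1667398 to 16402629 counts on genes, and a level of 3 counts or fewer was taken as the floor, for counting error only. Tables were made in Python 3.11.15.

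The genes and lists were chosen with earlier results of these data known. Named were the 9 genes, Smad2 and Smad4, up to 4 called genes of each role and comparison with WT with the smallest p, and for each of the 9 the 2 genes with the highest correlation over the libraries. Itgav and Bhlhe40 come under this rule through 1 comparison and are given in both. Id1, Id2, Id3, Snai1 and Tgfbi were added after their values were seen. Some genes counted in the lists are not reported here by name. Alternatives were other scalings and filters, a fit of the compared groups only, the adjusted p alone, glmTreat, a replicate block, 1 library left out, and WT libraries of like depth as the only controls.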

Additional observations from a re-analysis of the deposited data

How the results depend on the processing

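The 4 calls among the 9 genes in Tumor against WT came to 1 with glmTreat and to 2 to 4 with 1 library left out. In Lyso against WT the adjusted p alone gave 1 (Tgfb3) instead of 0. In the relapsed lines the single call became 0 with WT 3 as the only control (its spread assumed to be that of the other groups), with glmTreat, in a fit of the compared groups only, and 0 to 1 with 1 library left out. Tumor against the relapsed lines had 2 calls with glmTreat instead of 3. Lyso against the relapsed lines had 0 with glmTreat or library size only, 2 with the adjusted p alone and 0 to 1 with 1 library left out. Over the other 49 pathway genes, the 5 calls in Lyso became 3 with WT 3 as the only control, 3 with at least 10 counts in every library, 3 with library size only, 0 with glmTreat, 12 with no filter and 1 to 4 with 1 library left out. The 19 in Tumor became 6 with at least 10 counts, and the 0 in the relapsed lines became 1 with DESeq2, 4 with no filter and 0 to 1 with 1 library left out. The causes were not tested, except that the minimum of 10 counts removes genes that fall below it in any library compared.

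The log2 fold change changed sign, with no call on either side, for Tgfbr2 in Lyso (-0.075 with WT 3 as the only control, -0.042 with library size only), for Smad3 in Tumor (-0.048 with library size only, -0.031 with no filter), and for Tgfbr1 (-0.040) and Smad3 (-0.077) in the relapsed lines with WT 3 as the only control. With 1 library left out it changed sign 14 times. Against WT these were Smad3 in Tumor (-0.16 to 0.18) and Tgfb1 (-0.56 to 0.61), Tgfbr1 (-0.074 to 0.18), Tgfbr2 (-0.27 to 0.10), Smad3 (-0.049 to 0.28) and Ltbp1 (-1.06 to 0.47) in the relapsed lines. The others were Tgfb1 in Tumor against Lyso (-0.11 to 0.26), and in Lyso against the relapsed lines Tgfbr2 (-0.051 to 0.33), Tgfbr3 (-0.11 to 0.78) and Ltbp1 (-1.16 to 0.17). Without Rel, Tgfb1 was called higher than in the relapsed lines in Tumor (1.59) and Lyso (1.47).

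WT and Lyso share the replicate numbers 1, 2 and 3, and Tumor shares 1 and 3 with them. Deviations from the group mean correlated at -0.008 to 0.065 between same-numbered libraries and at -0.053 to 0.059 between differently numbered ones. With 3 noisy libraries per group, such values cannot exclude pairing, so whether the numbers pair the libraries is unknown. With a replicate block, 4 of the 9 genes were called in Tumor and 0 in Lyso, and 16 and 5 of the other pathway genes. Tumor 4 has no partner of its number, so in that fit the Tumor values rest on Tumor 1 and Tumor 3. The relapsed lines carry no numbers. Shallow WT 1 and WT 2 limit what can be said of genes near 0 in WT, such as Ltbp1.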

Other observations

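Other members of the TGF-beta superfamily, listed after results were seen, also differed between Tumor and WT. Of 30 other ligands 9 were tested and 4 were called higher, and of 14 secreted antagonists 12 were tested and 8 were called higher (edgeR), where 8.56% of all tested genes were called higher. Of the ligands, Inhba and Inhbb, the beta chains of activins, had 34.5, 11.1 and 3.53 CPM and 4.55, 3.82 and 2.12 CPM in Tumor 1, 3 and 4, and at most 0.118 and 0 CPM in any cultured library. Bmp3 and Gdf10, relatives of each other in the BMP family, had 1.65 to 3.62 and 1.21 to 7.53 CPM in Tumor and were listed at 0 in all 9 cultured libraries. The call for Gdf10 was lost with 1 library left out (adjusted p of up to 0.107).

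Among the antagonists, Fstl1, a follistatin-like protein, had 565.9, 487.1 and 406.3 CPM in Tumor and 28.3, 24.9 and 30.7 CPM in WT (log2 fold change 4.10, standard error 0.17). Fst (follistatin, which traps activins) and Chrdl1 (which binds BMPs) reached 9.26 to 16.2 and 8.45 to 16.01 CPM in Tumor and at most 0.118 and 0 CPM in cultured libraries. Chrd, Grem1, Nbl1 and Bmper were also called higher, and the call for Grem1 was lost with 1 library left out (adjusted p of up to 0.101). Noggin (Nog) ran the other way, with 0 counts in the 3 Tumor libraries and 0.566, 1.69 and 1.59 CPM in WT 1, 2 and 3, which did not pass the test (adjusted p = 0.09995). Twsg1, a BMP modulator, had 131.0, 124.3 and 128.9 CPM in Lyso and 71.3, 86.1 and 90.8 CPM in WT and was not called. The fibroblast markers were also higher in Tumor, as were the other ligands and antagonists called there, and their part was not tested.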
